A study of Mus musculus and Homo sapiens with 27 samples.

Results

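Plasma cells carry a small set of surface receptors by which they are recognised and through which they adhere and receive survival signals. The genes of 6 of them were followed here on human lymphochip arrays: TNFRSF17, which encodes the receptor BCMA; CD38; SDC1, which encodes syndecan-1 (CD138); SELPLG, which encodes PSGL-1; CD28; and CD9. On mouse lymphochip arrays the syndecan-1 gene Sdc1 was followed. The members are all features that carry 1 of these symbols, which gave 19 of 10169 named human features and 2 of 559 named mouse features. They stand for 6 of 4604 human genes and 1 of 331 mouse genes. The other receptors had no named mouse feature.

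B cells that become plasma cells lose much of their B-cell surface and gain receptors suited to long residence in bone marrow. BCMA binds the cytokines APRIL and BAFF and sustains plasma cell survival, CD38 is an ectoenzyme that consumes NAD, and syndecan-1 is a heparan sulfate proteoglycan that binds matrix and growth factors. IRF4 is a transcription factor that B cells need for plasma cell formation, and the arrays asked how its loss or its forced expression changes transcript levels.

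The human cells were OCI-Ly7, a diffuse large B-cell lymphoma (DLBCL) line of germinal-centre type. RNA of cells with the Vxy-IRF4 vector (Cy5) was hybridised with RNA of cells with the empty vector Vxypuro (Cy3), on 1 array at day 2, 2 arrays at day 3 and 1 array at day 5. This is 1 cell line, with 1 dye orientation and no array of control against control, so a dye bias of a gene cannot be told apart from its ratio. The array titles do not say whether the days came from separately prepared cells. The SE, intervals and tests of the human ratios below treat the 4 arrays as independent. The mouse cells were splenic B cells of adult Balb-c mice, kept in culture, with 1 deleted Irf4 allele (Irf4+/-, called Het) or both deleted (Irf4-/-, called KO); no wild-type cells were among the arrays, so both groups carry a deleted allele. They were untreated (0 h) or grown with lipopolysaccharide (LPS), a component of bacterial cell walls that makes B cells proliferate and secrete antibody, for 24, 48 or 96 h. Het had 3, 2, 2 and 4 arrays at these times and KO had 3 at each. The mouse RNA (Cy5) was set against a common pool (Cy3) of B-lineage, T-lineage and macrophage lines that includes plasmacytomas, so a mouse value of 0 is the level of that pool. All values are log2 ratios with the median of each array set to 0.

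The arrays differed in spread, from 0.975 to 3.10 (SD of the log2 values) in the mouse and from 1.25 to 2.04 in the human set. Numbers of the authors' database in the array titles fall into 3 ranges in the mouse and 2 in the human set, and these ranges are the closest thing to a batch that the labels give. The B-cell identity of the mouse cells was checked with Cd79b, which encodes a signalling chain of the antigen receptor and lay above the pool on 23 of 23 arrays (1.97 to 4.04). This is 1 gene, and the share of genes above the pool on all arrays was not counted. The mean of 3 myeloid genes was also above the pool at 96 h (0.73 to 1.62 in Het, 1.76 to 1.96 in KO), though not on every Het array at 0 h. The purity of the cells was thus not measured. No named mouse feature stood for Irf4, so its deletion could not be checked. In OCI-Ly7 the 4 features of IRF4 gave a mean of -0.29 at day 2, 0.67 and -0.17 at day 3 and -0.32 at day 5, so the mean did not show the vector's gene above the control (-0.03 ± 0.30, SE; limma adjusted p = 0.964). Feature 24729_1 of IRF4 lay above 0 on all 4 arrays (0.60 to 0.86). Which features lie within the vector's insert is not given in the sources used here, so the direction of the human ratios rests on the labelled dyes, and every human value below would change sign if the ratio ran the other way.

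TNFRSF17 was the receptor gene with the largest ratio in OCI-Ly7 cells labelled as carrying the IRF4 vector. Its gene value, the mean of 2 features, was 2.63 at day 2, 3.88 and 3.55 at day 3 and 3.38 at day 5. All 4 arrays lay far above 0, with the day 2 array the lowest. The mean was 3.36 ± 0.31 (SE, n = 4; limma adjusted p = 0.0455), a 10.3-fold higher ratio with a 95% interval from 6.11 to 17.3. In the labelled direction it was the highest mean of all 4604 genes; with the ratio turned it would be the lowest, and other genes that lay below 0, FGFR2 among them (-4.43), had a larger ratio in size. TNFRSF17 ranked 14 at day 2, 9 and 5 at day 3 and 9 at day 5 from the top of the single arrays. Only 5 of 4604 genes were past the adjusted threshold of 0.05 (0.109%), 2 of them higher (0.0434%) and 3 lower (0.0652%). The other higher gene was BMP6, a bone morphogenetic protein, and the lower ones were FGFR2, ICOSLG and SGSH. TNFRSF17 was the 1 receptor gene among the 6 that passed. In bulk RNA a change in the number of cells with a transcript and a change in its amount per cell cannot be told apart, here or below.

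Both features of TNFRSF17 showed the difference. Feature 17197_1 measured 2.14 at day 2, 3.33 and 2.85 at day 3 and 3.07 at day 5. Feature 27698_1 measured 3.12 at day 2, 4.43 and 4.26 at day 3 and 3.70 at day 5. The second was above the first on each array, by 0.63 to 1.41, and day 2 was the lowest array in each. Tested as single features over all 10169, they lay at 2.85 (limma adjusted p = 0.104) and 3.88 (limma adjusted p = 0.061); no single feature of the array passed, with 2256 at an unadjusted p under 0.05. The call of the gene was close to the threshold. It was lost without any of the 4 arrays: without day 2 the mean was 3.61 (limma adjusted p = 0.184), without day 3 repeat 1 3.19 (0.149), without day 3 repeat 2 3.30 (0.156) and without day 5 3.35 (0.160).

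**Figure D1:**
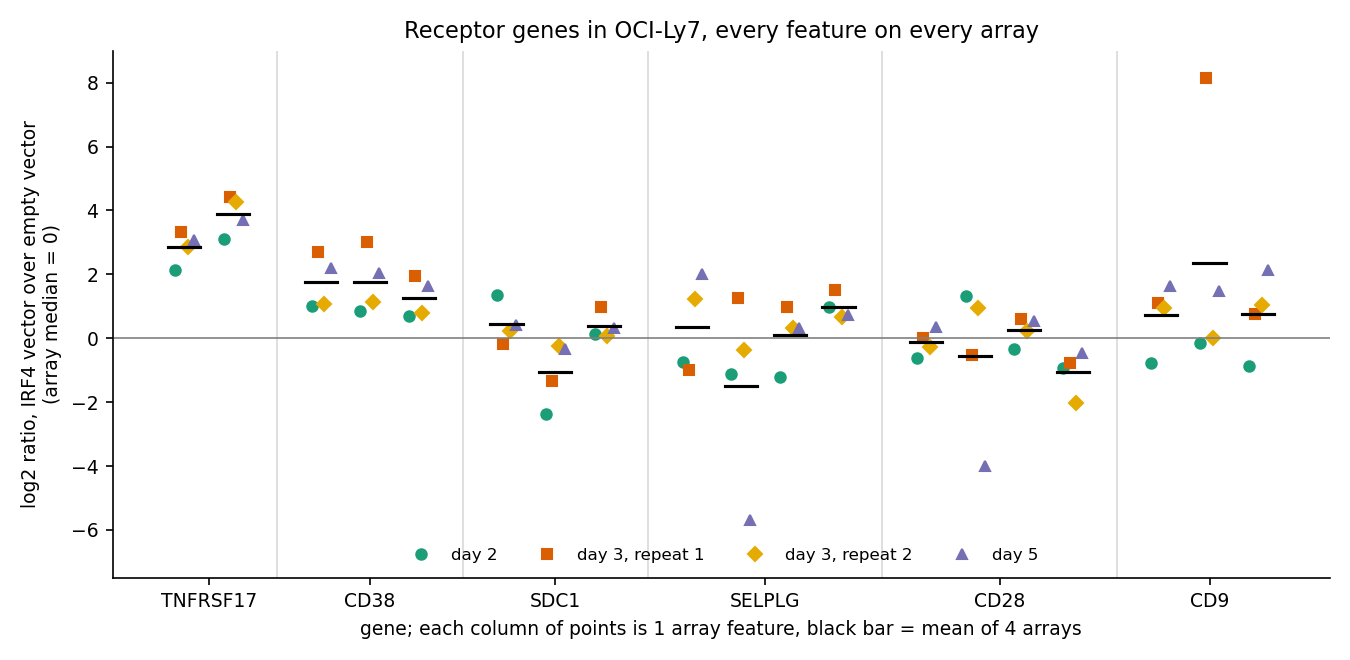
Log2 ratio of the IRF4 vector over the empty vector (y axis, array median at 0) for the 19 features of the 6 receptor genes in OCI-Ly7; each point is 1 array, coloured by day, and each black bar is the mean of 4 arrays. All points of TNFRSF17 and CD38 lie above 0, whereas single far points, such as 8.14 for CD9 and -5.70 for SELPLG, set the range of other genes.

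CD38 lay above 0 on every array and feature, with a smaller ratio than TNFRSF17. The mean of its 3 features was 0.86 at day 2, 2.55 and 1.00 at day 3 and 1.97 at day 5. The day 3 repeats thus differed by 1.55, more than day 2 differed from the lower of them. The mean was 1.60 ± 0.37 (SE, n = 4), a 3.02-fold ratio with a 95% interval from 1.61 to 5.69, and it did not pass the test over all genes (unadjusted p = 0.00507, limma adjusted p = 0.130). At an unadjusted p under 0.05 there were 1099 genes, 364 higher and 735 lower. CD38 ranked 47 of 4604 genes by its mean.

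The 3 features of CD38 gave nearly the same picture. Feature 16308_1 measured 1.01 at day 2, 2.71 and 1.08 at day 3 and 2.19 at day 5. Feature 28852_1 measured 0.86, 3.00, 1.14 and 2.06 on the same arrays in that order. Feature 34441_1 measured 0.71, 1.94, 0.79 and 1.65. All 3 features placed the arrays in 1 order, with day 3 repeat 1 highest, day 5 next, then day 3 repeat 2 and day 2. The median SD among the features of CD38 within an array was 0.23, against a median of 0.73 over the 2674 genes with several features, of which 10.1% had a lower one.

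CD9, a tetraspanin of the cell surface, had a high mean that 1 array raised. Its 3 features averaged -0.60 at day 2, 3.33 and 0.67 at day 3 and 1.76 at day 5. Day 2 was thus below 0 and the other arrays above it. Feature 19388_1 measured 8.14 on day 3 repeat 1, where features 15992_1 and 28532_1 measured 1.10 and 0.75. On day 5 the 3 features lay closer together, at 1.48, 1.65 and 2.15. The mean was 1.29 ± 0.63 (SE, n = 4; limma adjusted p = 0.257), and it was 0.61 without day 3 repeat 1 and 0.75 without feature 19388_1.

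SDC1, the gene of the classical plasma cell marker, showed no difference that these arrays could resolve. Its 3 features averaged -0.30 at day 2, -0.17 and 0.02 at day 3 and 0.14 at day 5, 2 arrays on each side of 0. The mean was -0.08 ± 0.25 (SE, n = 4; limma adjusted p = 0.856) with a 95% interval from -0.70 to 0.54, so a rise or fall within that interval cannot be told from none. The features themselves pointed different ways. Feature 26979_1 lay above 0 on all 4 arrays (0.06 to 0.98), feature 17780_1 lay below 0 on all 4 (-2.38 to -0.23), and feature 17577_1 ran from -0.17 to 1.34. On day 2 the highest and lowest features of SDC1 were 3.73 apart. The near-zero mean is therefore an average of features that did not measure alike.

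SELPLG, the gene of the selectin ligand PSGL-1, lay on either side of 0 as well. Its 4 features averaged -0.53 at day 2, 0.69 and 0.46 at day 3 and -0.66 at day 5, with a mean of -0.01 ± 0.34 (SE, n = 4; limma adjusted p = 0.986; 95% interval -0.85 to 0.82). Both day 3 arrays were above 0 and the day 2 and day 5 arrays below it. On day 5 feature 35024_1 measured -5.70 and feature 25229_1 2.00, a gap of 7.70. Feature 37801_1 was the one above 0 on all 4 arrays, at 0.98 on day 2, 1.52 and 0.66 on day 3 and 0.72 on day 5. Its mean alone was 0.97 (limma adjusted p = 0.185 over the features).

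CD28, a costimulatory receptor of T cells that plasma cells also carry, was the only receptor gene whose mean lay below 0 on all 4 arrays. It measured -0.14 at day 2, -0.17 and -0.29 at day 3 and -0.89 at day 5, a mean of -0.37 ± 0.27 (SE, n = 4; limma adjusted p = 0.413; 95% interval -1.04 to 0.30). In the same data 968 genes (21%) lay below 0 on all 4 arrays, and the median of all genes was -0.14. Feature 35080_1 was below 0 on all 4 arrays (-2.03 to -0.45), and feature 30443_1 was lowest on day 5 and highest on day 2 (1.33). Features 29417_1 and 32629_1 stayed between -0.61 and 0.59.

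Across the 6 genes, TNFRSF17 and CD38 were the members above 0 on all 4 arrays, as were 782 of 4604 genes (17%). Of the 19 features, 7 were above 0 on all 4 arrays against a background of 19.6% of single features, and 2 were below on all 4 against 18.5%. Those 7 comprised both features of TNFRSF17, all 3 of CD38, 1 of SDC1 and 1 of SELPLG. The features within an array differed most in CD28 (median SD 1.14) and SELPLG (1.09), followed by SDC1 (0.78), TNFRSF17 (0.74), CD9 (0.48) and CD38 (0.23).

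**Figure D2:**
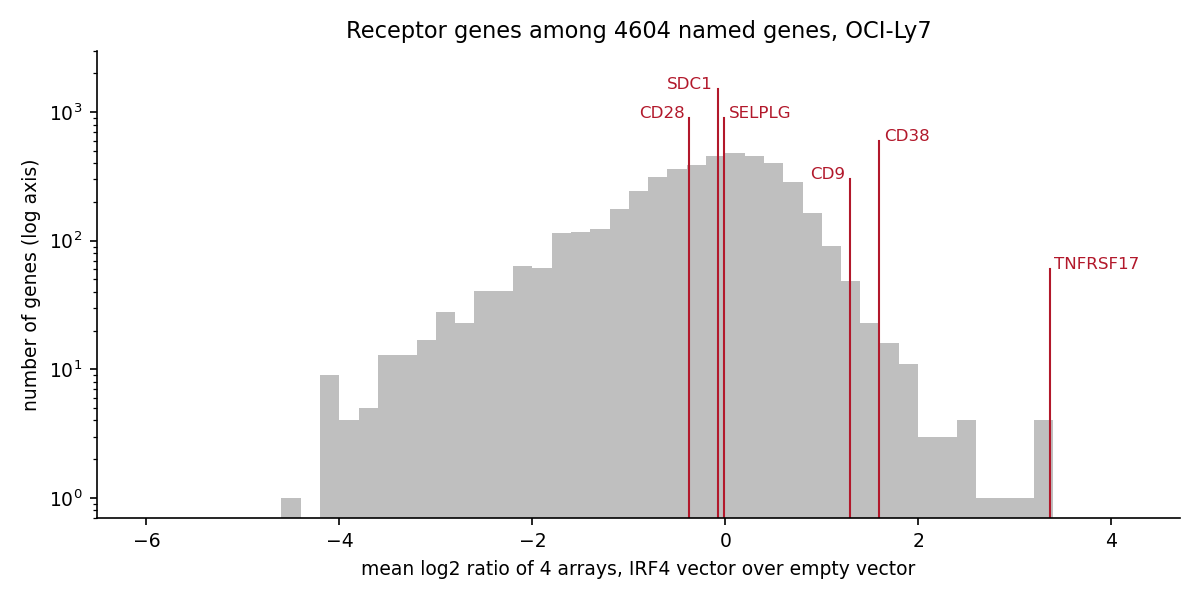
Distribution of the mean log2 ratio of 4 OCI-Ly7 arrays over 4604 genes (grey, log y axis), with the 6 receptor genes as red lines whose heights serve only to separate the labels. TNFRSF17 (3.36) stands at the upper end, CD38 (1.60) and CD9 (1.29) in the upper tail, and SDC1 (-0.08), SELPLG (-0.01) and CD28 (-0.37) in the body of the distribution.

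A change of the ratio with the day was not detectable for any receptor gene. TNFRSF17 had a slope of 0.16 ± 0.30 per day (SE), CD38 of 0.31 ± 0.34, CD9 of 0.59 ± 0.54, SDC1 of 0.14 ± 0.25, SELPLG of -0.17 ± 0.33 and CD28 of -0.27 ± 0.25, with limma adjusted p from 0.803 in CD9 and 0.816 in CD28 to 0.977 in SELPLG. By limma 0 of 4604 genes (0%) passed in either direction, and 567 had an unadjusted p under 0.05. The lower database range holds day 3 repeat 1 and day 5, and the higher one day 3 repeat 2 and day 2, so each range has 1 array of day 3. CD38 lay at 2.26 in the lower range and at 0.93 in the higher one, a difference of 1.33 ± 0.58 (SE; limma adjusted p = 0.899). CD9 lay at 2.54 and 0.04, a difference of 2.51 ± 0.83 (SE; limma adjusted p = 0.899). TNFRSF17 lay at 3.63 and 3.09. The only day 5 array lies in the lower range and the only day 2 array in the higher one. Day and range are thus mixed in these differences and slopes, and the slopes were not fitted with the range. The part of the range in the CD38 and CD9 ratios was not tested beyond this.

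The other genes of each receptor's pathway mostly did not pass. Genes named from these groups without passing were chosen after their values were seen. The counts of members at an unadjusted p under 0.05 below stand against 1099 of all 4604 genes. In the BAFF and APRIL system, 1 of 4 measured genes passed, TNFRSF17 itself, with a median of 0.61 against -0.14 over all genes. TNFSF13, which encodes the BCMA ligand APRIL, was above 0 on all 4 arrays (0.02 to 1.43; mean 0.83, limma adjusted p = 0.193). TNFSF13B, which encodes BAFF, lay at 0.38 (0.612) and TNFRSF13C, the BAFF receptor gene, at -1.04 (0.362), from -3.30 on day 5 to 0.53 on day 2. Among CD38 and the ectoenzymes of NAD and adenosine, 0 of 7 passed by limma, 1 had an unadjusted p under 0.05 (CD38), and the median was 0.01. BST1, the closest relative of CD38, lay at -1.07 (limma adjusted p = 0.219), while CD38 lay at 1.60.

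Of the syndecans and heparan sulfate enzymes 0 of 8 passed by limma, 0 also at an unadjusted p under 0.05, with a median of -0.09. The other syndecan genes lay at -0.10 (SDC2), -0.29 (SDC3) and 0.32 (SDC4), against -0.08 for SDC1; SDC4 was above 0 on all 4 arrays (0.20 to 0.49; limma adjusted p = 0.433). Of PSGL-1, the selectins and the genes that modify or anchor PSGL-1, 0 of 7 passed by limma and 1 (MSN, which encodes the cytoskeletal linker moesin, at -1.48) had an unadjusted p under 0.05, with a median of 0.10. Of the CD28 family and the B7 ligands, 1 of 8 passed, with a median of -0.43. This was ICOSLG, which encodes the ligand of the costimulator ICOS and fell to -3.49 at day 2, -3.77 and -2.41 at day 3 and -3.25 at day 5, a mean of -3.23 ± 0.32 (SE; limma adjusted p = 0.0455). The ICOSLG call was lost without any of the 4 arrays: the mean was -3.14 without day 2 (limma adjusted p = 0.191), -3.05 without day 3 repeat 1 (0.149), -3.50 without day 3 repeat 2 (0.149) and -3.23 without day 5 (0.160). CD80 (-0.37) and CD86 (-0.49), the ligands of CD28 itself, did not pass (limma adjusted p = 0.474 and 0.351). Of the tetraspanins 0 of 10 passed by limma, 2 had an unadjusted p under 0.05, and the median was 0.08. These 2, CD53 (0.93) and CD63 (0.94), were above 0 on all 4 arrays, as CD9 was not (limma adjusted p = 0.157 and 0.199).

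Genes of the plasma cell programme, given for comparison, lay on both sides of 0. By limma 0 of 13 passed, 5 had an unadjusted p under 0.05 above 0 and 1 below, against 364 above and 735 below among the 4604 genes, and the median was 0.16. Of the 13, which include IRF4 itself, 8 lay above 0 and 5 below. The genes named here were chosen after their values were seen. ELL2 had the largest mean of the list, 2.88 (0.67 to 5.89, limma adjusted p = 0.154), while HSP90B1 lay at -0.88 and MZB1 at -0.23. JCHAIN, the joining chain of secreted antibody, measured 1.60 at day 2, 3.42 and 1.87 at day 3 and 3.10 at day 5 (mean 2.50, limma adjusted p = 0.102). PRDM1 (1.83) and XBP1 (2.07), both transcription factors of plasma cells, had adjusted p = 0.119 by limma. SLAMF7, another surface receptor of plasma cells, lay at -1.86 (limma adjusted p = 0.137), from -3.40 to -0.39, below 0 on each array. Among adhesion and homing receptors 0 of 15 passed by limma (3 at an unadjusted p under 0.05, median 0.08), among mature B-cell genes 0 of 19 (6 unadjusted, median -0.50), and among germinal-centre genes 0 of 10 (3 unadjusted, median -0.28). The cell cycle list had 0 of 14 (3 unadjusted, median -0.16), the T and NK cell list 0 of 18 (2 unadjusted, median -0.39) and the myeloid list 0 of 9 (1 unadjusted, median -0.55).

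The human genes whose values over the 4 arrays came nearest to TNFRSF17 were BMP6, with a root mean square difference of 0.26, SUB1 with 0.61 and JCHAIN with 1.02. BMP6 had a mean of 3.25 and SUB1, a transcriptional coactivator with 1 feature here, also of 3.25. BMP6 passed the test (limma adjusted p = 0.0455) and SUB1 did not (0.102). The BMP6 call, too, was lost without any of the 4 arrays (limma adjusted p = 0.119 to 0.184). Nearest to CD38 were BTG1 (0.18), an antiproliferative gene, PDIA5 (0.24), a protein disulfide isomerase of the endoplasmic reticulum, and EIF6 (0.26). Nearest to SDC1 were RCC1L (0.09), ZDHHC21 (0.09) and NAIP (0.10), all with means close to 0. The 4 arrays are the same for all of these genes, so the nearness is a description of these hybridisations.

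In mouse B cells the mean of the 2 Sdc1 features lay below the reference pool on 22 of 23 arrays. Feature 101061_1 did so on 22 arrays and feature 104308_1 on 19. On feature 104308_1 all 3 Het 0 h arrays and Het 24 h repeat 1 lay above the pool. The share of all genes this often below the pool was not counted. In Het the mean of the 2 features was -3.16, -0.78 and 3.79 at 0 h, -2.68 and -2.14 at 24 h, and -2.72 and -1.42 at 48 h. At 96 h it was -1.42, -2.22, -2.02 and -3.10. In KO it was -1.01, -3.13 and -0.77 at 0 h, -0.36, -3.57 and -1.47 at 24 h, -5.93, -1.68 and -1.57 at 48 h, and -0.73, -0.92 and -1.15 at 96 h. The array above the pool in the mean of both features was Het 0 h repeat 3. From high to low the group means were Het 0 h (-0.05 ± 3.53, SD, n = 3), KO 96 h (-0.93 ± 0.21, n = 3), KO 0 h (-1.63 ± 1.30, n = 3), KO 24 h (-1.80 ± 1.63, n = 3), Het 48 h (-2.07 ± 0.92, n = 2), Het 96 h (-2.19 ± 0.69, n = 4), Het 24 h (-2.41 ± 0.38, n = 2) and KO 48 h (-3.06 ± 2.49, n = 3). The arrays of every neighbouring pair in this order overlapped. The channel fields of KO 24 h repeat 3 and of KO 48 h repeats 1 and 3 say Het, and the order follows the titles.

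**Figure D3:**
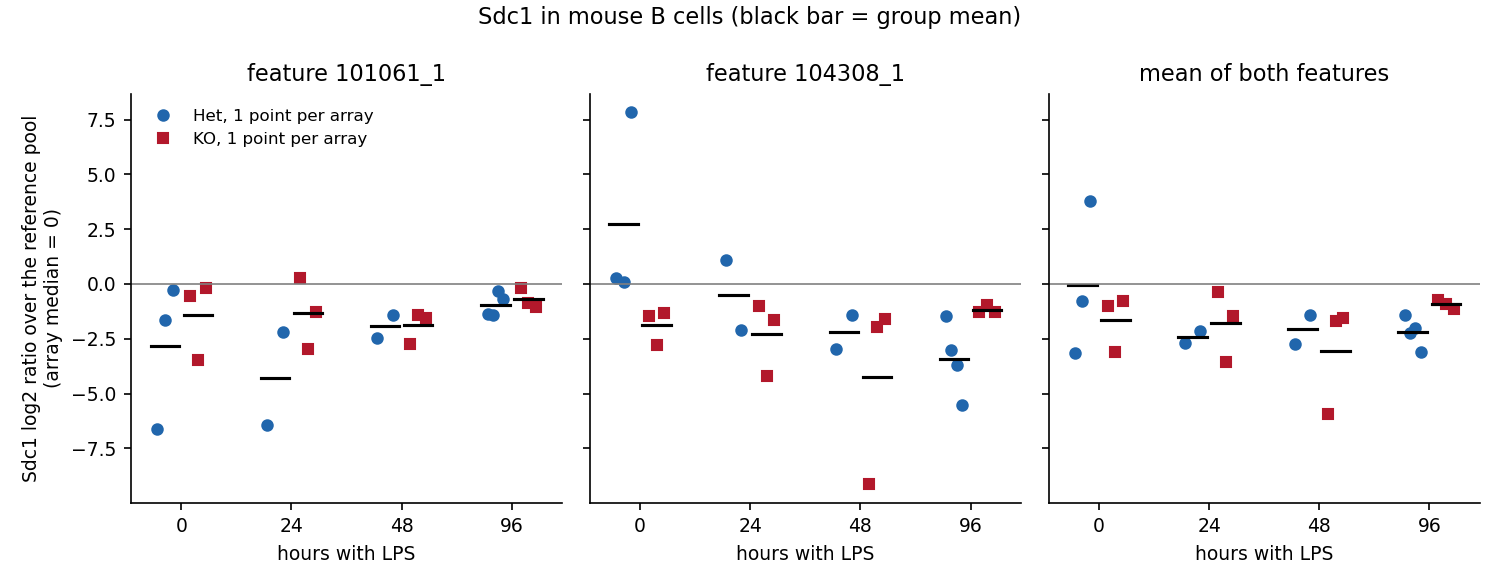
Sdc1 log2 ratio over the reference pool (y axis, array median at 0) by hours with LPS in Het (blue circles) and KO (red squares), for each feature and for their mean; each point is 1 array and each black bar a group mean. At 96 h the KO arrays (-1.15 to -0.73) lie above the Het arrays (-3.10 to -1.42) in the mean of both features, and at 0 h 1 Het array reaches 7.84 on feature 104308_1.

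The features of Sdc1 did not measure alike. On Het 0 h repeat 3 feature 104308_1 measured 7.84 and feature 101061_1 -0.27. On Het 0 h repeat 1 they measured 0.29 and -6.61, and on Het 24 h repeat 1 1.08 and -6.43. On KO 48 h repeat 1 they measured -9.14 and -2.73. They lay within 1 log2 unit of each other on 11 of 23 arrays. Over the 23 arrays their Pearson r was 0.01 (permutation p = 0.97) and Spearman's rho 0.20 (permutation p = 0.367). Without the 2 arrays farthest from the median of feature 101061_1, which are repeat 1 of Het at 0 h and at 24 h, r was 0.44 (permutation p = 0.0352, 0.106 after Benjamini-Hochberg adjustment over 3 relations) and rho 0.52 (permutation p = 0.0159, adjusted 0.0477). On the 13 arrays of the highest database range r was 0.27 (permutation p = 0.471) and rho 0.37 (permutation p = 0.213). The spread of Sdc1 within groups was 1.80 (residual SD, log2), against a median of 0.66 over 331 genes, the 29th highest value.

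At 96 h of LPS every KO array of Sdc1 was above every Het array, but the difference did not pass the test. KO was higher by 1.26 ± 1.27 (SE; limma adjusted p = 0.993), with a 95% interval from -1.41 to 3.93. Such a separation, with every KO array higher, was found in 6.04% of the 331 genes, and 2.72% passed the test at 96 h, all of them lower in KO. The arrays were apart on feature 104308_1, at -1.27, -0.97 and -1.27 in KO against -1.47, -3.01, -3.70 and -5.50 in Het, as on 4.11% of the 559 features in that direction. On feature 101061_1 the groups overlapped, at -0.18, -0.86 and -1.03 in KO and -1.38, -1.43, -0.34 and -0.69 in Het. With arrays of the highest database range alone, which hold all 96 h arrays and whose spread is narrower, the same difference of 1.26 had a limma adjusted p of 0.0623.

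Other comparisons of genotype left Sdc1 unresolved as well. KO minus Het was -1.58 ± 1.36 (SE) at 0 h (limma adjusted p = 0.551), 0.61 ± 1.52 at 24 h (0.858) and -0.99 ± 1.52 at 48 h (0.997), where 1.81%, 0% and 0% of genes passed by limma and, at 24 and 48 h, 31 and 9 genes had an unadjusted p under 0.05. Averaged over the LPS times it was 0.29 ± 0.83 (SE; limma adjusted p = 0.913), where 2.42% passed. The sign thus varied from time to time. At 0 h feature 104308_1 was lower on every KO array (-2.79 to -1.34) than on every Het array (0.07 to 7.84), again as on 4.11% of features, with a difference of -4.60 (limma adjusted p = 0.250); on feature 101061_1 the genotypes overlapped. An exact permutation test of the mean difference over the 4 times, with genotypes permuted within each time, gave -0.18 (2-sided p = 0.821, 70000 regroupings). Feature 101061_1 alone gave 1.18 (exact permutation p = 0.146) and feature 104308_1 alone -1.54 (exact permutation p = 0.228), so the features had opposite signs. For 3 KO arrays, at 24 h repeat 3 and at 48 h repeats 1 and 3, the channel fields say Het where the title says KO; without them the mean difference was 0.13 and with them taken as Het 0.26.

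The response of Sdc1 to LPS in Het cells depended on the 0 h arrays. Sdc1 differed from 0 h by -2.36 ± 1.52 (SE) at 24 h (limma adjusted p = 0.320), -2.01 ± 1.52 at 48 h (0.421) and -2.14 ± 1.27 at 96 h (0.197). In these comparisons 13.3%, 8.46% and 25.7% of genes passed. Without Het 0 h repeat 3 these differences were -0.44, -0.10 and -0.22. Without the lowest database range that repeat is the only Het array left at 0 h, and repeat 2 the only one at 24 h. The differences were then -5.92, -5.85 and -5.97, with each lone array assumed to vary like the other groups. The 24 h value among them set 1 array against 1 array. At 96 h the features differed in sign. Feature 104308_1 measured 0.29, 0.07 and 7.84 at 0 h and -5.50 to -1.47 at 96 h, a difference of -6.15 (limma adjusted p = 0.0224 over 559 features, of which 22.9% were past the threshold and lower). Without Het 0 h repeat 3, left out after seeing the data, the difference of feature 104308_1 was -3.60 and no longer passed (limma adjusted p = 0.0708), while without repeat 1 or repeat 2 it was -7.38 and -7.48 (limma adjusted p = 0.0311 and 0.0242). Its 0 h and 96 h arrays did not overlap, as was the case, in that direction, for 15.6% of features. Feature 101061_1 measured -6.61, -1.63 and -0.27 at 0 h and -1.43 to -0.34 at 96 h, a difference of 1.88 (limma adjusted p = 0.247), which was -0.010 without Het 0 h repeat 1 (limma adjusted p = 0.993) and 3.16 without repeat 3 (0.0481). At 24 h both features were lower than at 0 h, with differences of -1.47 (feature 101061_1) and -3.24 (feature 104308_1). At 48 h they lay at 0.91 and -4.94 in the same order, again with opposite signs.

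In KO cells Sdc1 differed from 0 h by -0.17 ± 1.36 (SE) at 24 h (limma adjusted p = 0.988), -1.43 ± 1.36 at 48 h (0.935) and 0.70 ± 1.36 at 96 h (0.776), where 1.51%, 1.51% and 0.906% of genes passed. At 48 h the lowest KO array lay at -5.93 and the other 2 at -1.68 and -1.57. The channel fields of the arrays at -5.93 and -1.57 say Het where their titles say KO. The change from 0 to 96 h differed between KO and Het by 2.84 ± 1.86 (SE; limma adjusted p = 0.548), where 0% of genes passed and 42 had an unadjusted p under 0.05, and by 0.92 without Het 0 h repeat 3.

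**Figure D4:**
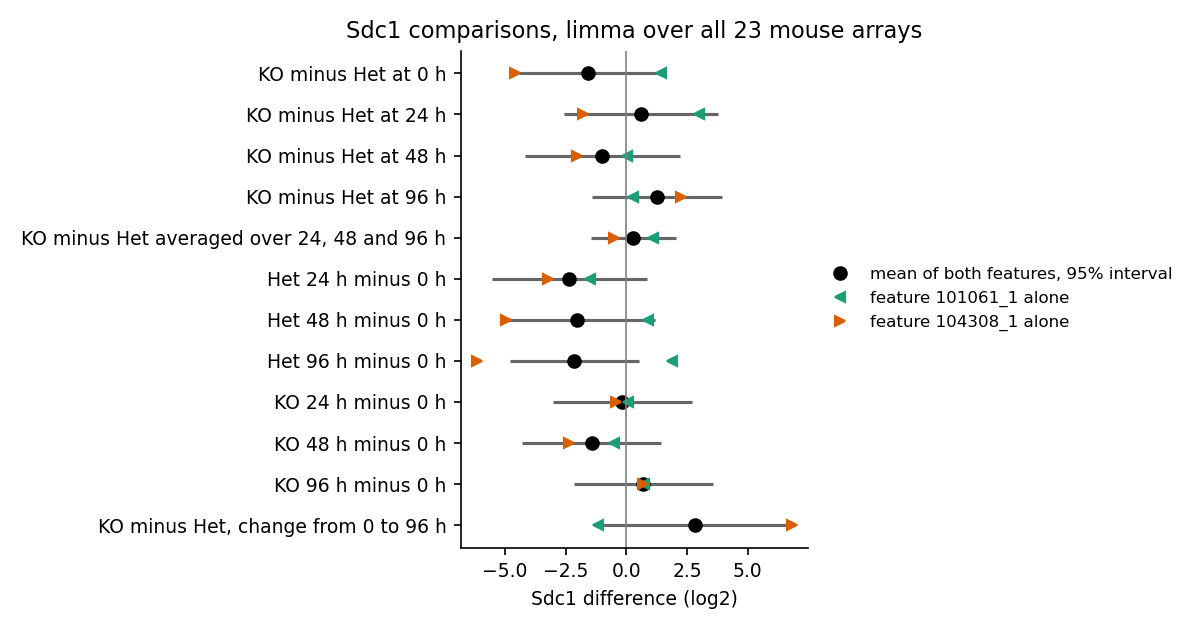
Differences of Sdc1 (x axis, log2) in the 12 limma comparisons of genotype and LPS time; black points with bars are the mean of both features with the 95% interval, and triangles are single features. Every interval of the mean includes 0, and the features lie on opposite sides of 0 in several comparisons, such as Het 96 h minus 0 h (1.88 and -6.15).

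The pattern of Sdc1 over the 8 group means was most like that of Cd3g (Pearson r 0.86), Ctnna1 (0.84), Gzma (0.72), Ccnd1 (0.69) and Cd81 (0.69). Over the 23 single arrays the same pairs had r of 0.42, 0.42, 0.45, 0.51 and -0.26. The group means share their arrays and the wide spread of Het at 0 h, so these values describe these arrays only. Cd3g, a chain of the T-cell receptor complex, and Gzma, a protease of cytotoxic cells, are the 2 measured members of the T and NK cell list. The mean of that list ran from -1.57 to -0.03 in Het and from -2.97 to -0.09 in KO at 0 h, and from -2.10 to -0.39 in Het and from -1.72 to -0.33 in KO at 96 h. The 3 measured myeloid genes ran from 0.73 to 1.62 in Het and from 1.76 to 1.96 in KO at 96 h. The part of other cells in the Sdc1 values was not tested.

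Among related mouse genes at 96 h, Sdc1 and Hs2st1 (a heparan sulfate sulfotransferase; 1.70, limma adjusted p = 0.230) were the 2 measured genes of the syndecan list, and 0 passed. The plasma cell list had 6 measured genes, of which 2 passed, both lower in KO, and the median was -1.55, against a median of -0.07 over all 331 genes. These were Jchain (-7.41, limma adjusted p = 0.000495), whose call held without each 96 h array in turn, and Iglv1, an immunoglobulin lambda segment (-2.30, 0.0345). The Iglv1 call was lost without any 96 h array other than Het repeat 1, at -2.40 to -2.21 (limma adjusted p up to 0.163). Prdm1 (-0.91), Mzb1 (-1.30), Xbp1 (-1.36) and Ell2 (-1.74) did not pass (limma adjusted p = 0.993, 0.993, 0.184 and 0.462). The mean of the list, in which Jchain had the largest difference, was 1.75 to 2.08 in Het and -0.58 to -0.45 in KO at 96 h. The arrays of the genotypes lay apart there, and how often other sets of genes did so was not counted. At 96 h Sdc1, a plasma cell marker, was below the pool on the arrays of both genotypes. Of the CD38 and ectoenzyme list 1 of 2 passed, Entpd1, which encodes the ectoenzyme CD39 (-1.47, limma adjusted p = 0.0116). Leaving out KO 96 h repeat 1 or repeat 2 ended the call of Entpd1 (-1.43, limma adjusted p = 0.0712, and -1.47, 0.0597). None of the measured genes passed among the mature B-cell (2), adhesion (2), germinal-centre (1), tetraspanin (1), T and NK cell (2), myeloid (3) and cell cycle (5) lists, and the lists of BAFF and APRIL, of PSGL-1 and of CD28 had 0 measured genes.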

How the data were processed

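The deposited values were taken as log2 ratios of Cy5 over Cy3. Per the labels, total RNA (Trizol) was labelled through reverse transcription. How the authors scanned, background-corrected, normalized and filtered the arrays, the log base and the direction are not stated in the labels or files; the values' range fits base 2. Neither channel signals nor depth could be checked, so the number of arrays limits the precision. Symbols came from the platform annotation (15246 human and 12292 mouse features; those with several symbols or none were left out). Arrays were centred on their median, and features of a gene averaged. Groups follow the titles; the design text calls the repeats biological, and calls the human control non-transduced where the labels say empty vector. The limma 3.58.1 fits (R 4.3.3; 1 mean per mouse group, or a human ratio against 0) covered all named genes, 2-sided, with Benjamini-Hochberg adjustment. Permutation tests used scipy 1.17.1. On simulated data for the human comparison (200 of 4604 genes changed), 46.9% of changes of 2 log2 units and 83.7% of changes of 4 were recovered. For KO minus Het at 96 h (60 of 331) these were 60% and 91.4%. The simulated noise was normal and independent between genes, with no effect shared by an array. More genes were changed than passed in the data, so these rates are not the power for the members. The members and lists were chosen with earlier results of these data known. Besides the members, the rule named list genes past the threshold in the human comparison or the mouse one at 96 h, the 3 genes nearest to TNFRSF17, CD38 and SDC1, and the 5 best correlated with Sdc1. Alternatives covered centring, quantile normalization, feature averaging, far values, array weights, database ranges, conflicting labels, single features and arrays left out. Replicate numbers were not used to pair the mouse arrays. Of 10 same-numbered pairs of KO and Het, 5 had a correlation of deviations over 0.1 (-0.17 to 0.51). The median was 0.10, against -0.03 for the other pairs. Where Het had 2 arrays their deviations mirror each other, so this check cannot decide whether the numbers pair the arrays.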

Additional observations from a re-analysis of the deposited data

Results flagged for a closer look

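In OCI-Ly7 the mean of the IRF4 features on day 3 repeat 1 was 0.67, far from the other 3 arrays, the nearest of which lay at -0.17. The same array stood apart on IRF4 feature 16614_1, at 0.77 with the nearest at -0.80, and on IRF4 feature 35916_1, at 0.58 with the nearest at -0.61. The gap to the nearest array, as a share of the range of the 4 arrays, was above Dixon's critical value of 0.829 in each case. Of 33 sets of 4 arrays tested, 3 were above it, where chance gives about 1 in 20, and the 3 share arrays and partly features. On this array CD38 (2.55), CD9 (3.33), TNFRSF17 (3.88) and SELPLG (0.69) also had their highest values. SDC1 was highest on day 5 (0.14) and CD28 on day 2 (-0.14). The share of all genes with their highest value on this array was not counted, and a relation to IRF4 was not tested.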

How the results depend on the processing

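The 10.3-fold ratio of TNFRSF17 kept its sign in 17 of 17 alternatives (2.85 to 3.88), but its call was lost in 13. Leaving out arrays or features could not turn the sign, since both features lay above 0 on every array. Either feature alone also gives the same value as the other left out. The mean of TNFRSF17 was 3.17 without centring (limma adjusted p = 0.0501), 3.39 centred over the named features (0.0503), 3.36 with the median of features (0.0645) or the range as a factor (0.063), 3.63 and 3.09 in the lower and higher range alone (chosen, like each feature left out, after seeing the data), 2.85 with feature 17197_1 and 3.88 with feature 27698_1 alone, 2.85 without feature 27698_1 (0.063), and 3.19 to 3.61 without single arrays. The count of 5 human genes became 1 without centring, 1 centred over the named features, 1 with the median of features, 94 after quantile normalization, 262 with array weights, 0 with the range as a factor, 8 and 0 in the lower and higher range alone and 0 to 1 without single arrays. CD38 (0.93 to 2.26) and CD9 (0.04 to 2.54) kept their sign in all 19 alternatives each, and neither passed in any. For CD38, too, leaving out arrays or features could not turn the sign.

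Values near 0 changed sign. SELPLG was 0.012 centred over the named features and 0.014 in the lower range alone, 0.30 with the median of features, 0.10 with array weights, 0.37, 0.10 and 0.97 with features 25229_1, 36115_1 and 37801_1 alone, 0.48 without feature 35024_1 and -0.25 to 0.21 without single arrays. SDC1 was 0.087 with the median of features, 0.46 and 0.38 with features 17577_1 and 26979_1 alone and 0.42 without feature 17780_1. CD28 was 0.25 with feature 32629_1 alone. Slopes per day that changed sign were SELPLG at 0.35 (median of features), 0.92 and 0.38 (features 25229_1 and 36115_1), CD28 at 0.12 (median), 0.31, 0.24 and 0.22 (features 29417_1, 32629_1 and 35080_1), and SDC1 at -0.20 (feature 17577_1). Without single arrays slopes ran from -0.12 to 2.60 for CD9, -0.62 to 1.10 for SELPLG and -0.17 to 1.09 for TNFRSF17.

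For Sdc1, KO minus Het at 24 h turned to -0.14 by quantile normalization, -1.27 with far values (beyond 6) missing, -0.38 without the lowest range, -0.27 with the range as a factor and -1.78 with feature 104308_1 alone. At 48 h it turned to 0.075 with far values missing, 0.13 with array weights, 0.39 without the arrays of conflicting labels, 1.23 with these as Het, and 0.036 with feature 101061_1 alone. At 0 h it was 1.43 with that feature and -5.73 without the lowest range, where the Het group is 1 array. It was -4.55 in the highest range alone, which sets 1 Het array against 1 KO array with the spread of the other groups. Averaged over LPS times it was -0.062 after quantile normalization, -0.039 without the lowest range, -0.17 with the range as a factor and -0.52 with feature 104308_1. The mean over 4 times was 0.061 centred over the named features, 0.13 without the arrays of conflicting labels, 0.26 with these as Het and 1.18 with feature 101061_1. Het 96 h minus 0 h was -3.13 after quantile normalization (limma adjusted p = 0.0256), -5.97 without the lowest range and with the highest alone, -6.15 with feature 104308_1 and 1.88 with feature 101061_1. Het 24 h and 48 h were -5.92 and -5.85 without the lowest range, 48 h -5.20 with the highest alone and 0.91 with feature 101061_1. KO 96 h minus 0 h was -0.23 after quantile normalization, -0.16 in the highest range alone and -1.06 with the range as a factor, and KO 24 h was 0.024 with array weights and 0.089 with feature 101061_1. The difference of the changes was 6.99 without the lowest range, 5.81 with the highest alone and -1.16 with feature 101061_1. In both range settings the Het 0 h group is repeat 3 alone, and with the highest alone so is the KO 0 h group. The Het 24 h group is repeat 2 alone without the lowest range. With the highest alone the Het 48 h group is repeat 2 alone. In those settings the Het change from 0 h at these times set 1 array against 1 array. Sdc1 passed in some settings with a lone 0 h array. Its p-values there are not given, because a lone array has no spread of its own. The cause of the other changes was not tested.

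Without single arrays Sdc1 ran from -3.14 to 0.34 (KO minus Het at 0 h), -0.11 to 1.49 (24 h), -1.74 to 0.44 (48 h) and -0.57 to 0.30 (mean over 4 times), and in KO from -0.91 to 0.72 (24 h), -2.17 to 0.010 (48 h) and -0.045 to 1.13 (96 h). KO minus Het at 96 h stayed above 0 in 22 of 22 alternatives (0.27 to 2.25) and passed in 0. Leaving out an array could not turn that sign, because every KO array lay above every Het array. The database ranges could not either, since all 96 h arrays fall in the same range. Counts of mouse genes past the threshold moved widely over the alternatives. For KO minus Het they ran from 0 to 57 at 0 h (6 as reported), 0 to 21 at 24 h (0), 0 to 1 at 48 h (0), 6 to 42 at 96 h (9) and 3 to 16 over the LPS times (8). Against 0 h they ran from 0 to 99, 0 to 79 and 2 to 172 in Het at 24, 48 and 96 h (44, 28 and 85) and from 1 to 37, 0 to 24 and 1 to 102 in KO (5, 5 and 3), and from 0 to 30 for the difference of the changes (0). The 3 genes of KO 96 h minus 0 h became 70 after quantile normalization, 102 with array weights and 63 with only the compared groups fitted.

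With the replicate number as a block, KO minus Het of Sdc1 averaged over LPS times was -0.15 (limma adjusted p = 0.994) and 0.96 at 96 h (0.996); the block changed no call of Sdc1. Turning the sign of arrays was not needed, since no pair of human arrays correlated below 0.308. Without channel signals, features could not be filtered by brightness.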
